A study of Mus musculus with 12 samples.

Results

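Interferon-stimulated genes are the genes that cells switch on when an interferon binds its receptor, and 40 of them were followed here in cultured mouse mesangial cells (MMC). They were taken by symbol from a written list, and all 40 had a row among the 25230 genes counted. RNA was sequenced from MMC of wild-type (WT) mice and of mice of the lncMGC-KO5 line, in which CRISPR-Cas9 had removed sequence around the start site of lncMGC, the long noncoding RNA that hosts a cluster of microRNAs. KO5 is a single line made in C57BL/6J embryos, and MMC were grown out of glomeruli in RPMI medium with serum. The 4 groups were WT-SD and KO-SD, which were serum-depleted (SD), and WT-TGF and KO-TGF, which were treated for 24 h with 10 ng/ml TGF-β. A group had 3 libraries. The labels do not say whether these came from separate cultures or animals, so p-values measure the spread between these libraries, which may be technical. Within KO-SD, pairs of libraries had a chi-square per degree of freedom of 2.59 to 5.05. This measure grows with spread beyond counting error and was 1.35 to 2.1 in the other groups. The comparisons ask how TGF-β, the main profibrotic signal of the glomerulus, and loss of lncMGC change the level of these genes.

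Type I interferons signal through the receptor chains IFNAR1 and IFNAR2 and the kinases JAK1 and TYK2, which phosphorylate transcription factors, STAT2 among them. STAT2 and IRF9 belong to a complex that binds a short DNA element, the interferon-stimulated response element (ISRE), in the promoters of target genes. The products sense or degrade foreign RNA, stop its translation, or trap virus particles, and many cells keep them at a low level without any infection. A further element, GAS, lies in promoters of genes that interferon-γ induces.

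The libraries held 19898050 to 22827706 counts on genes, and the detection floor was set at 3 counts, which equals 0.130 to 0.161 CPM (counts scaled to a common library size). CPM were scaled by TMM, which corrects library sizes for the bulk of genes. lncMGC itself is not among the genes analysed here. Rian and Mirg, with which it shares exons, were counted in all groups: Rian had 916 to 994 counts in WT-SD and 1468 to 1518 in KO-SD, and 1539 to 1720 in WT-TGF and 1763 to 2002 in KO-TGF. Mirg had 47 to 59 and 72 to 89 in SD, and 73 to 80 and 68 to 87 with TGF-β, where the genotypes overlapped. The genotype labels were therefore not checked against the level of the targeted transcript.

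Of the 40 genes, 24 reached RPKM >1 (reads scaled to library size and exon length) in at least 1 library, the limit used for testing. Another 15 had counts below it, for which a fit without the limit was used, and Oas1a had no count in any library. Among the 24, 16 reached the limit in all 12 libraries, while Irf7, Ifit1, Ifit3b, Uba7 and Xaf1 reached it only in SD libraries. For Uba7 these were WT-SD libraries alone. A set of 5, Oas1a, Oas2, Oas3, Oasl1 and Mx1, never exceeded 3 counts, so none of them could show a difference at this depth. Per length, the highest levels in WT-SD were those of Samd9l, with a mean RPKM of 40.3, Ifi27 with 29.9 and Ifit3 with 23.8. Most other members lay lower, for example Stat2 with a mean RPKM of 6.43, Irf7 with 1.48 and Rsad2 with 0.0482.

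Promoter sequence is shown for 6 of the members that hold the ISRE core, so that the element can be read in it; other members that moved far, such as Cmpk2 and Ifit2, had no core and are not shown. The core of the ISRE was searched as GAAANNGAAA or its reverse complement TTTCNNTTTC, on both strands, in RefSeq promoters of GRCm38.p6 from 250 bases before to 50 bases after the start site. It was present in 1131 of 32851 promoters (3.44%) and in promoters of 12 of the 31 members with an entry (38.7%). GAS, searched as TTCNNNGAA, was present in 8.3% of all promoters and in those of 7 of 31 members (22.6%). The shares of all promoters are per promoter entry. A member was counted when any of its entries matched, and the 31 members had 38 entries, so the shares are of unlike units. Overlapping matches were counted separately. A match is a description of the letters and not of binding. No entry was found for Oas2, Mx1, Mx2, Usp18, Zbp1, Parp9, Parp14, Rtp4 and Ifi27. In the stretches below, read 5′ to 3′ on the strand of the gene, capitals mark the ISRE cores.
Ifit3, chr19:34583353-34583436, plus strand: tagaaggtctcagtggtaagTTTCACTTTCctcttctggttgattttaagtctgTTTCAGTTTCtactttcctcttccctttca
Ifit3b, chr19:34607749-34607832, plus strand: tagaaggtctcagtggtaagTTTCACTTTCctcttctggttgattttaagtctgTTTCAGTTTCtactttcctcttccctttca
Ifit1, chr19:34640765-34640833, plus strand: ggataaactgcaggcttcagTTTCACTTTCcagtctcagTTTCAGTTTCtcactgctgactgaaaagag
Isg15, chr4:156200855-156200916, minus strand: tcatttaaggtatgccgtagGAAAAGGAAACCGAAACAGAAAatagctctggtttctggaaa
Ddx60, chr8:61928014-61928086, plus strand: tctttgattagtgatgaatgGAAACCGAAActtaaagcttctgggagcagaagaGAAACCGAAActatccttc
Stat2, chr10:128270256-128270305, plus strand: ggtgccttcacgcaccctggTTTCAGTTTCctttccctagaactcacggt

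The stretches of Ifit3 and Ifit3b were identical over all 84 bases, and each held 2 cores. Ifit1, their neighbour on chromosome 19, also held 2, and Isg15 held 3 that overlap. Ifit2, the other member of the cluster, had no ISRE core in either of its 2 windows, nor had Isg20, Ifi47 or Samd9l. Irf7, Irf9, Uba7, Herc6 and Lgals3bp, all lower with TGF-β in both genotypes, had none either.

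**Figure D1:**
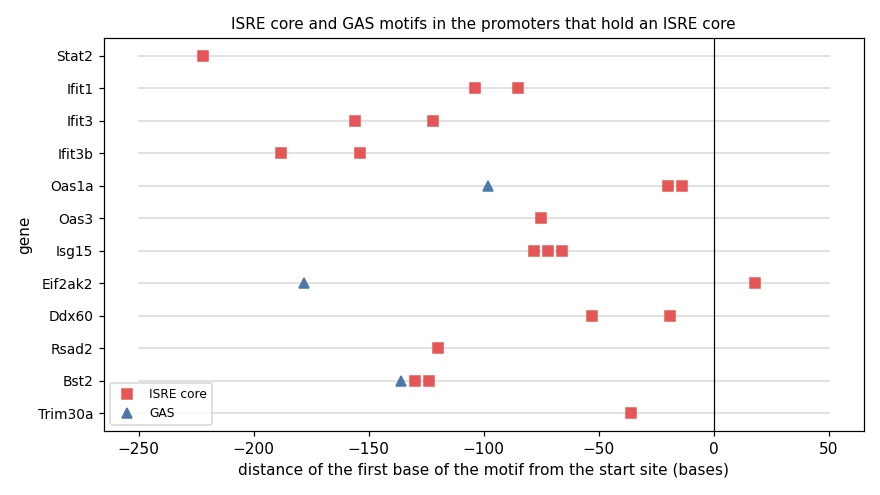
Position of the ISRE core (squares) and of GAS (triangles) in the RefSeq promoters of the 12 genes that held an ISRE core, by the distance of the first base from the start site at 0; for Trim30a the first of its 2 promoter entries is drawn. The cores of Ifit1, Ifit3, Ifit3b and Isg15 lie between -188 and -66 bases, before the start, and that of Eif2ak2 lies at 18 bases, after it.

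TGF-β lowered most of the group. In WT cells 31 of the 40 genes were lower in WT-TGF than in WT-SD at an FDR of 5% and 1, Isg20, was higher. The 31 comprised 22 of the 24 above the RPKM limit (91.7%), where 36.4% of the 11529 genes tested were called lower and 36.0% higher, and 9 of the 15 below it (60%), where 25.8% of 18565 genes were called lower. By more than 2-fold, 9 of the 24 were lower (37.5%, against 5.79% of all genes). Over the 24, the log2 fold change had a median of -0.78, beside -0.00488 over all genes tested. In KO cells the same comparison gave 29 lower and again Isg20 higher. There, 22 of 24 (91.7%) were lower against 39.1% of all genes, with 34.9% higher, 10 by more than 2-fold (41.7%, against 9.16%), and 7 of the 15 below the limit (46.7%, against 28.5%). The median was -0.92, beside -0.0251 over all genes.

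The knockout was lower than WT for most of the group in both conditions, by smaller amounts. In SD, 22 of the 40 were lower in KO and 2, Ifi47 and Samd9l, were higher. Of the 24, 15 were lower (62.5%) against 25.2% of all genes, with 30.9% of all genes higher, and 7 of the 15 below the limit were lower (46.7%, against 17.9%). Among the 24, 2, Ifit3 and Ifit3b, were lower by more than 2-fold (8.33%, against 3.24%), and the median of the 24 was -0.30, beside 0.0195 over all genes. With TGF-β, KO-TGF fell below WT-TGF for 23 of the 40, while 3, Isg20, Samd9l and Ifi47, were higher. These were 17 of the 24 (70.8%, against 27.8% of all genes, with 27.3% higher) and 6 of the 15 (40%, against 20.3%), with a median of -0.36 over the 24, beside -0.00356 over all genes. Ifit3 and Ifit3b were again the 2 below WT by more than 2-fold (8.33%, against 4.68%). Of the 24, 5 reached the RPKM limit through SD libraries alone, where their levels were higher, and Uba7 among them through WT-SD libraries alone. The shares and medians over the 24 are therefore given as a description, as are the values of these 5 genes below. Comparisons that meet in a group share its 3 libraries, so their counts are not independent of each other.

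**Figure D2:**
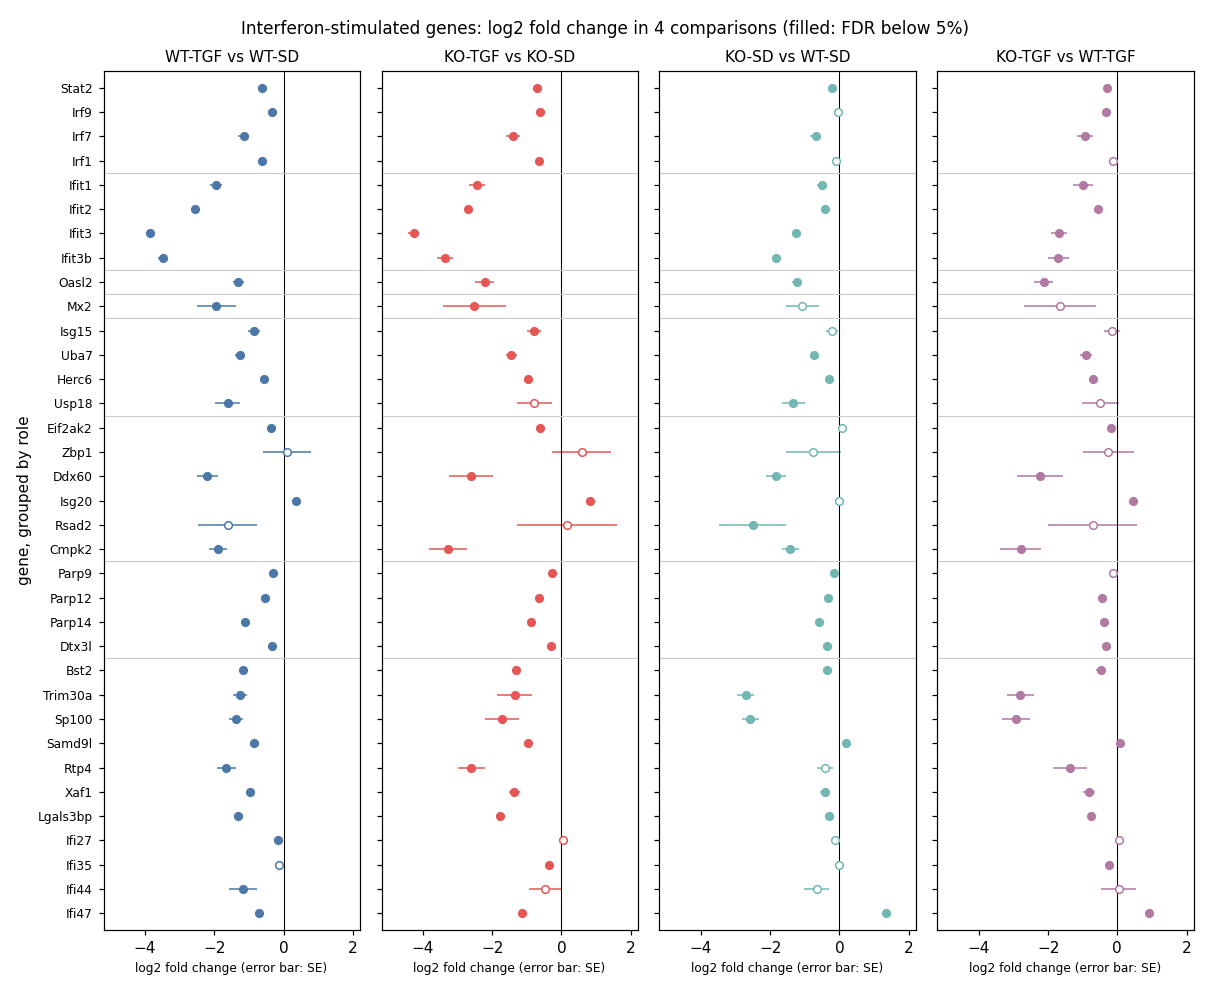
Log2 fold change (points, with SE bars) of the 35 members that exceeded 3 counts in a library, in the 4 comparisons, 1 row per gene grouped by role. Filled points passed an FDR of 5%, open points did not, and fitted values of genes near the floor, such as Mx2, Zbp1 and Rsad2, depend on the fit. The left panels show almost every gene to the left of 0 after TGF-β, with Ifit3 and Ifit3b farthest, down to -4.27 for Ifit3 in KO cells.

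The libraries also differed in markers of other cells. The 16 macrophage markers summed to 40.8 to 43.7 CPM in WT-SD, 22.3 to 26.2 in WT-TGF, 8.68 to 10.3 in KO-SD and 2.67 to 3.10 in KO-TGF. The sums were lower with TGF-β in both genotypes, and lower still in KO against WT. Of these 16, 8 were lower with TGF-β in WT (beside 25.8% of all genes with a count) and 4 in KO (beside 28.5%), and 13 were lower in KO than in WT in SD (beside 17.9%) and 13 with TGF-β (beside 20.3%). The 5 above the RPKM limit were called in the fit with that limit. There 4 were lower with TGF-β in WT (beside 36.4% of all genes) and 3 in KO (39.1%). All 5 were lower in KO than in WT in SD (25.2%) and with TGF-β (27.8%). Adgre1, Tyrobp, C1qa, C1qb, C1qc and Ctss had no count in any of the 6 KO libraries. Others remained there, Cd14 at 6.02 to 7.71 CPM in KO-SD and 1.18 to 1.497 in KO-TGF and Cd68 at 1.101 to 1.19 and 0.321 to 0.857, and both were called lower with TGF-β in KO. The part of macrophage RNA in the differences with TGF-β and between KO and WT was not tested, and in bulk RNA fewer cells of a type and less RNA per cell cannot be told apart. Markers of tubular epithelium summed to 75.7 to 81.2 CPM in WT-SD, 22.1 to 25.0 in WT-TGF, 23.1 to 25.1 in KO-SD and 9.68 to 10.6 in KO-TGF. Those of podocytes summed to 440 to 448, 448 to 465, 214 to 222 and 203 to 219 CPM in the same order of groups, and those of glomerular endothelium to 33.0 to 33.5, 20.3 to 22.6, 17.25 to 18.5 and 9.25 to 10.9. Ehd3 made up nearly all of the endothelial sum and was the only one of its 8 markers above the RPKM limit. Single markers did not all follow the sums. Of the 7 podocyte markers, 3 were lower and 1 higher with TGF-β in WT, and 2 and 1 in KO. Against WT, 4 of them were lower in KO in SD and 3 with TGF-β. Of the 8 tubular markers, 3 were lower and 1 higher with TGF-β in each genotype. In KO against WT, 2 of these were lower and 1 higher in SD, and 3 were lower with TGF-β. Mesangial and smooth muscle markers, such as Acta2, had the highest of these sums in all groups. They summed to 4451 to 4623 CPM in WT-SD, 8749 to 9003 in WT-TGF, 7372 to 7398 in KO-SD and 14660 to 14840 in KO-TGF. Of these 11 markers, 5 were higher and 3 lower with TGF-β in WT, and 6 and 3 in KO. For KO against WT, 6 were higher and 3 lower in SD, and 5 and 4 with TGF-β. Over the 7 of the 11 above the RPKM limit, these log2 differences ran from -3.84 to 1.27 in SD and from -4.47 to 1.48 with TGF-β. For the tubular, podocyte and mesangial lists, the shares of all genes called lower are those given with the macrophage markers, by fit. Of all genes above the RPKM limit, 36.0% and 34.9% were higher with TGF-β in WT and KO. For KO against WT, 30.9% were higher in SD and 27.3% with TGF-β. All mesangial and smooth muscle markers called higher were above that limit. No share called higher was taken over all genes with a count. Reads that fell outside annotated exons made up 15.2% to 15.4% in WT-SD, 12.2% to 12.5% in WT-TGF, 12.7% to 13.4% in KO-SD and 10.3% to 10.9% in KO-TGF, and their part in the result was not tested.

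Summed over the 40 genes, the level was 792 to 808 CPM in WT-SD and 455 to 464 in WT-TGF, and 721 to 742 in KO-SD and 409 to 417 in KO-TGF. Samd9l was the largest single part of each sum. Without it the sums were 577 to 592, 336 to 343, 474 to 484 and 283 to 288 CPM. In both forms the 4 groups did not overlap.

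**Figure D3:**
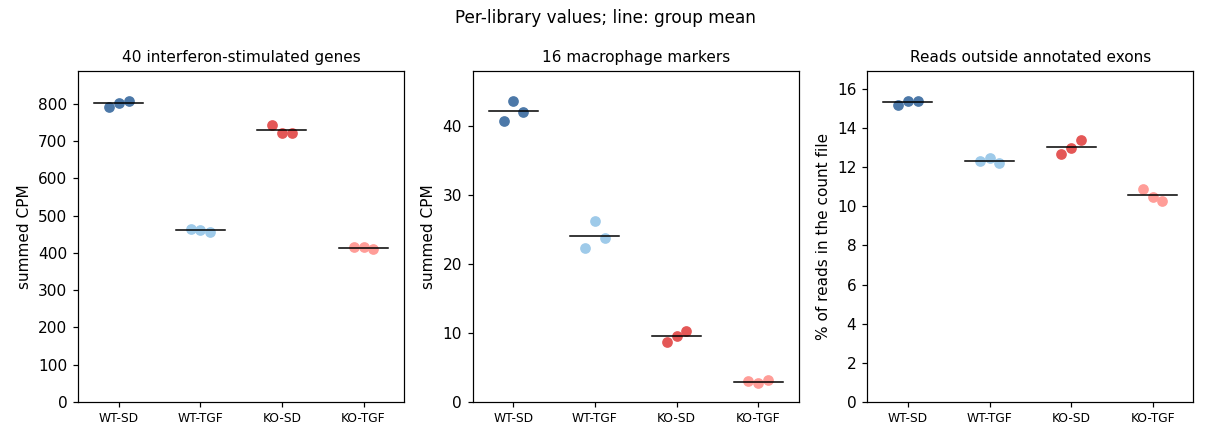
Sum of CPM over the 40 interferon-stimulated genes (left), sum of CPM over 16 macrophage markers (middle) and percentage of reads outside annotated exons (right) in each of the 12 libraries (points), with the group mean as a line. The interferon-stimulated genes fell from 792 to 808 CPM in WT-SD to 455 to 464 in WT-TGF, while the macrophage markers were highest in WT-SD and lowest in KO-TGF, at 2.67 to 3.10.

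The 4 members that carry the interferon signal itself all fell with TGF-β in both genotypes. Stat2, a subunit of the ISRE-binding complex, was 1.55-fold lower with TGF-β in WT (log2 fold change -0.63 ± 0.06, SE) and 1.65-fold lower in KO. Irf9, the DNA-binding part of that complex, had 23.8, 21.9 and 21.1 CPM in WT-SD and 17.5, 18.4 and 16.6 in WT-TGF, a log2 difference of -0.35 ± 0.06 (SE) with an edgeR adjusted p of 1.64e-05. In KO-SD it had 22.2, 21.6 and 20.9 CPM, overlapping WT-SD, and in KO-TGF 14.1, 14.9 and 12.9, below every WT-TGF library. Irf1, which binds the same element and is itself induced by interferon-γ, was the highest of the 4 by mean CPM. It had 37.4, 37.3 and 40.3 CPM in WT-SD and 25.2, 24.7 and 24.9 in WT-TGF, and 34.4, 37.3 and 35.5 in KO-SD and 23.8, 23.2 and 21.2 in KO-TGF. TGF-β groups lay below SD groups without overlap, with differences of -0.62 and -0.65 on the log2 scale, whereas KO differed from WT by -0.10 ± 0.05 (SE) in SD and -0.13 ± 0.06 with TGF-β, which did not pass the test (edgeR adjusted p = 0.0732 and 0.0515). Both differences of Irf1 passed with library size alone in place of TMM scaling, at -0.18 and -0.26, and with only the groups compared (adjusted p = 0.0452 and 0.0388). The one in SD also passed without KO-SD replicate 2 or any 1 of the KO-TGF libraries (0.0267 to 0.0421), and the one with TGF-β without any 1 of the WT-SD libraries or KO-SD replicate 1 (0.0413 to 0.0492).

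Irf7, which drives production of interferon-α, changed most among them. It reached the RPKM limit only in SD libraries, where it was higher, so its values are given as a description. Its level was 5.05, 6.11 and 5.55 CPM in WT-SD, 2.08, 3.21 and 2.17 in WT-TGF, 3.997, 3.57 and 2.798 in KO-SD and 1.12, 1.44 and 1.37 in KO-TGF. The 3 KO-TGF libraries were the lowest of the 12 and the 3 WT-SD libraries the highest. TGF-β changed it by -1.15 ± 0.16 (log2, SE) in WT and -1.39 ± 0.21 in KO, and KO differed from WT by -0.69 ± 0.15 in SD (edgeR adjusted p = 0.000164) and -0.93 ± 0.22 with TGF-β (adjusted p = 0.000735).

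The 4 IFIT genes, whose products bind RNA that lacks the marks of the host's own mRNA, fell furthest as a group, with medians of -3.03 in WT and -3.04 in KO. Ifit1 and Ifit3b reached the RPKM limit only in SD libraries, where they were higher. These medians and the values of both genes are therefore given as a description. Ifit2 was highest by CPM, with 48.8, 49.1 and 45.9 in WT-SD and 7.56, 7.801 and 8.94 in WT-TGF, and 36.8, 36.2 and 34.6 in KO-SD and 5.95, 4.76 and 5.68 in KO-TGF. No groups overlapped, and the change with TGF-β was 5.93-fold in WT (log2 -2.57 ± 0.07, SE, edgeR adjusted p = 4.77e-25) and 6.57-fold in KO. KO was lower, with log2 differences of -0.42 in SD and -0.57 with TGF-β.

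Ifit3 gave the largest change of all 40 genes with TGF-β. It had 39.7, 42.8 and 41.9 CPM in WT-SD and 2.93, 3.08 and 2.52 in WT-TGF, 14.5-fold lower (log2 -3.86 ± 0.10, SE, edgeR adjusted p = 2.19e-25). In KO it went from 17.6, 17.1 and 17.02 CPM to 0.803, 0.428 and 1.42, 19.3-fold lower. The untreated KO libraries lay well below WT-SD and far above either TGF-β group. KO differed from WT by -1.27 ± 0.07 (log2, SE) in SD and -1.68 ± 0.23 with TGF-β (adjusted p = 2.1e-07).

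Ifit3b, the near-copy of Ifit3 whose promoter stretch is printed above, had 13.9, 14.8 and 14.9 CPM in WT-SD, 1.42, 1.03 and 1.43 in WT-TGF, 3.72, 4.34 and 4.17 in KO-SD and 0.375, 0.481 and 0.315 in KO-TGF. The groups were again fully separate. TGF-β changed it 11.2-fold in WT and 10.3-fold in KO, and KO was lower by 3.56-fold in SD (log2 -1.83 ± 0.10, SE, edgeR adjusted p = 4.18e-16). Of the 51-base windows of the transcripts, the length of 1 read, 50.8% in Ifit3 and 44.6% in Ifit3b also occur in another gene, mostly in the other of the pair. Reads that aligned to several places were not assigned to a gene, so the division of reads between the pair is uncertain. Ifit1, which shares 7.02% of its windows, was lower at 4.32 to 5.78 CPM in WT-SD and fell by 1.96 (log2) in WT and by 2.44 in KO.

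The OAS family includes the enzymes that make the short oligoadenylates that activate RNase L. Of the 5 family members followed here, only Oasl2 exceeded the floor. Its level was 4.32, 5.77 and 5.46 CPM in WT-SD, 2.22, 1.83 and 2.12 in WT-TGF, 2.11, 2.37 and 2.06 in KO-SD and 0.696, 0.267 and 0.4204 in KO-TGF. WT-TGF and KO-SD overlapped, and KO-TGF lay below both. It fell by 1.31 (log2) with TGF-β in WT and by 2.21 in KO, and was lower in KO, with differences of -1.22 ± 0.15 (SE) in SD and -2.13 ± 0.28 with TGF-β (edgeR adjusted p = 6.19e-15 and 1.23e-13). It lay below the RPKM limit in every library. Oas2 and Oas3 had at most 2 and 3 counts, and Oas1a shares 57% of its windows with Oas1g.

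Of the Mx GTPases, which block virus replication, Mx1 had at most 2 counts in a library and Mx2 at most 15. Mx2 had 6, 15 and 13 counts in WT-SD, 1, 4 and 3 in WT-TGF, 9, 2 and 4 in KO-SD and 0, 0 and 2 in KO-TGF. It fell with TGF-β in WT (log2 -1.94 ± 0.56, SE, edgeR adjusted p = 0.0013), and the summed counts of KO-TGF were 6.58 times lower than those of KO-SD, with an exact 95% interval of 1.53 to 59.3 that covers counting error only. KO and WT did not differ past the threshold in SD (adjusted p = 0.0622), though they did with library size alone (0.0365), without WT-SD replicate 1 (0.0236) or without KO-SD replicate 1 (0.0138), nor with TGF-β (0.226), though they did without KO-TGF replicate 3 (0.0448). The fall in KO lost its call in DESeq2 (adjusted p = 0.0631) and when KO-SD replicate 1 was left out (0.181), or KO-TGF replicate 1 (0.0735), or its replicate 2 (0.0750).

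ISG15 is a ubiquitin-like protein that is joined to other proteins by UBA7 and HERC6 and removed by USP18. Isg15 itself was at 2.41 to 2.82 CPM in WT-SD and 1.32 to 1.56 in WT-TGF and fell by 0.86 on the log2 scale (edgeR adjusted p = 0.000124), and by 0.79 in KO. KO and WT overlapped in both conditions, and the differences of -0.22 ± 0.17 (SE) and -0.15 ± 0.22 did not pass. Herc6, the highest of the system by CPM, had 15.1, 15.7 and 14.97 CPM in WT-SD, 9.45, 10.7 and 10.7 in WT-TGF, 12.3, 12.9 and 11.8 in KO-SD and 6.32, 7.11 and 5.52 in KO-TGF, with no overlap between groups. It shares 12.4% of its windows with other genes. It fell by 0.57 (log2) in WT and by 0.97 in KO.

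Uba7, the activating enzyme, had 9.37, 7.98 and 10.2 CPM in WT-SD, 3.64, 4.37 and 3.36 in WT-TGF, 5.42, 5.502 and 5.64 in KO-SD and 1.93, 1.71 and 2.42 in KO-TGF. Each step was separate, and KO was lower, with differences of -0.73 ± 0.11 (log2, SE) in SD and -0.91 ± 0.17 with TGF-β (edgeR adjusted p = 1.71e-06 and 4.47e-05). Uba7 reached the RPKM limit only in WT-SD libraries, where it was highest, so these values are given as a description. Usp18, which also holds back the receptor, was below the RPKM limit, with 1.05, 1.08 and 1.001 CPM in WT-SD and 0.615, 0.0892 and 0.296 in WT-TGF, and 0.459, 0.2896 and 0.459 in KO-SD and 0.321, 0.267 and 0.105 in KO-TGF. It was lower after TGF-β in WT (log2 -1.62 ± 0.36, SE) and in KO against WT in SD (-1.33 ± 0.34), while the KO groups overlapped and their difference of -0.78 ± 0.50 did not pass (adjusted p = 0.199).

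Among the other sensors and enzymes, Eif2ak2, the kinase PKR that stops translation on double-stranded RNA, was the highest by CPM. It had 63.7, 63.5 and 63.98 in WT-SD, 48.6, 49.8 and 49.99 in WT-TGF, 69.7, 65.8 and 64.6 in KO-SD and 44.7, 43.6 and 42.8 in KO-TGF. KO-SD lay slightly above WT-SD and KO-TGF below WT-TGF. The first difference was 0.07 ± 0.04 (log2, SE) and did not pass (edgeR adjusted p = 0.128), and the second was -0.18 ± 0.04 (adjusted p = 0.000528). Ddx60, a helicase with 2 ISRE cores in its printed promoter, had 1.59, 1.99 and 1.55 CPM in WT-SD, 0.615, 0.223 and 0.247 in WT-TGF, 0.689, 0.434 and 0.275 in KO-SD and 1, 2 and 1 counts in KO-TGF. It fell 4.602-fold in WT, and KO was lower in SD (log2 -1.84 ± 0.29, SE). The summed counts of KO-TGF were 5.08 times lower than those of WT-TGF (exact 95% interval 1.74 to 20.2), a difference whose call was lost without WT-TGF replicate 1 (adjusted p = 0.103).

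Cmpk2, a mitochondrial nucleotide kinase, lies near Rsad2 on chromosome 12 and had 2.18, 1.65 and 2.32 CPM in WT-SD, 0.378, 0.4904 and 0.741 in WT-TGF, 0.735, 0.965 and 0.5504 in KO-SD and 1, 2 and 1 counts in KO-TGF. KO was lower in SD (log2 -1.42 ± 0.25, SE, edgeR adjusted p = 4.95e-08). KO-TGF was 10.5 times lower than KO-SD by summed counts (exact 95% interval 3.85 to 40.2) and 7.51 times lower than WT-TGF (2.68 to 29.1). Rsad2, whose product viperin makes an antiviral nucleotide, had at most 5 counts and was in KO-SD 6.71 times below WT-SD (1.54 to 60.9). This call of Rsad2 (adjusted p = 0.026) was lost in DESeq2 (0.116), with the replicate number as a block (0.0569), and without WT-SD replicate 3 (0.0645) or KO-SD replicate 1 (0.122). Zbp1, a sensor of Z-form nucleic acid, had at most 7 counts and no call in any comparison.

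Isg20, an exonuclease that degrades single-stranded RNA, moved against the group. It had 5.32, 5.55 and 5.42 CPM in WT-SD and 7.71, 7.18 and 5.98 in WT-TGF, and 5.01, 5.502 and 5.78 in KO-SD and 9.75, 10.1 and 8.99 in KO-TGF. All TGF-β libraries were above all SD libraries, and KO-TGF was above WT-TGF, while the SD groups overlapped. The increase was 0.36 ± 0.11 (log2, SE) in WT (edgeR adjusted p = 0.00414) and 0.82 ± 0.11 in KO (adjusted p = 3.9e-08). With library size alone in place of TMM, which put the median of all genes at -0.163 in WT and -0.229 in KO, the increase in WT was 0.20 and did not pass (adjusted p = 0.0968).

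**Figure D4:**
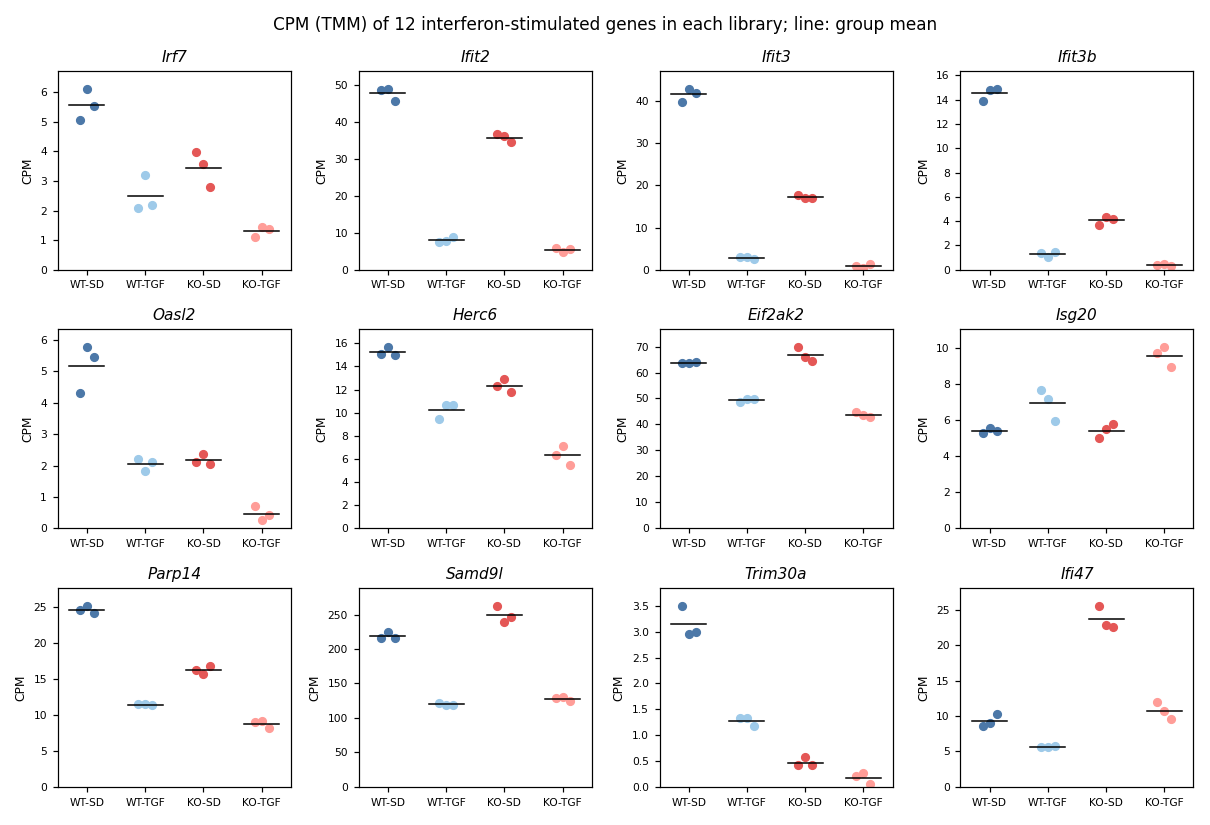
CPM (TMM-scaled, linear axes from 0) of 12 members in each library (points) of the 4 groups, with the group mean as a line. Ifit3 falls from 39.7 to 42.8 CPM in WT-SD to 2.52 to 3.08 in WT-TGF, whereas Isg20 rises with TGF-β and Ifi47 is higher in KO than in WT under both conditions.

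PARP9, PARP12, PARP14 and DTX3L attach ADP-ribose or ubiquitin to proteins, and PARP9 acts in a complex with DTX3L. All 4 fell with TGF-β in both genotypes, by smaller amounts than the IFIT genes, and all 4 were lower in KO than in WT in SD. Parp12 was highest by CPM in SD, with 46.7, 43.2 and 41.6 in WT-SD, 31.2, 30.4 and 29.1 in WT-TGF, 35.1, 35.7 and 34.8 in KO-SD and 21.6, 22.5 and 22.7 in KO-TGF. The groups were separate, and KO was lower, with differences of -0.32 ± 0.05 (log2, SE) in SD and -0.44 ± 0.06 with TGF-β. With TGF-β, and between KO and WT in SD, Parp14 changed most of the 4, with 24.6, 25.2 and 24.2 CPM in WT-SD, 11.4, 11.5 and 11.4 in WT-TGF, 16.2, 15.7 and 16.7 in KO-SD and 9.05, 9.14 and 8.15 in KO-TGF. It was 2.16-fold lower after TGF-β in WT (edgeR adjusted p = 4.8e-16) and 1.52-fold lower in KO in SD. Parp9 and Dtx3l fell by 0.31 and 0.33 (log2) in WT, and the KO-TGF and WT-TGF libraries of Parp9 overlapped. That difference of -0.13 ± 0.06 did not pass (adjusted p = 0.0663), but did with library size alone (0.000611) and without KO-TGF replicate 1 (0.0231), while the one in SD (-0.15 ± 0.05) was lost with no filter on low values (0.0631). Of the windows of Parp9, 7.67% occur in Dtx3l too.

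The remaining 11 members are restriction factors and other products. Samd9l, which limits translation in infected cells, was the highest of all 40 by CPM, with 215.4, 225.4 and 215.8 in WT-SD, 122.3, 119.4 and 118.9 in WT-TGF, 262.6, 238.6 and 246.9 in KO-SD and 128.5, 131.1 and 124.2 in KO-TGF. It fell by 0.86 (log2) in WT and by 0.96 in KO with TGF-β, but was higher in KO than in WT, by 0.19 ± 0.03 (SE) in SD (edgeR adjusted p = 3.74e-06) and 0.09 ± 0.03 with TGF-β (adjusted p = 0.0267). With library size alone the second difference turned to -0.03, and it also lost its call without WT-TGF replicate 2 (adjusted p = 0.0707), WT-TGF replicate 3 (0.0817) or KO-TGF replicate 2 (0.0546).

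Ifi47, a GTPase induced by interferon-γ, was the clearest gene above WT in the knockout. It had 8.59, 8.98 and 10.3 CPM in WT-SD, 5.67, 5.62 and 5.78 in WT-TGF, 25.6, 22.8 and 22.6 in KO-SD and 12, 10.7 and 9.57 in KO-TGF. Every KO library exceeded the WT libraries of its condition, by 2.55-fold in SD (log2 1.35 ± 0.08, SE, edgeR adjusted p = 2.34e-15) and 1.89-fold with TGF-β. TGF-β nevertheless lowered it in both genotypes, by 0.71 (log2) in WT and by 1.14 in KO.

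In SD, Trim30a and Sp100 separated the genotypes most. Trim30a, a TRIM protein that dampens NF-κB signaling, had 3.502, 2.95 and 3.003 CPM in WT-SD, 1.32, 1.34 and 1.19 in WT-TGF, 0.413, 0.579 and 0.413 in KO-SD and 0.214, 0.267 and 0.0526 in KO-TGF. Every KO library, untreated or not, lay below every WT library. KO was lower, with differences of -2.71 ± 0.24 (log2, SE, edgeR adjusted p = 2e-27) in SD and -2.80 ± 0.39 with TGF-β, while its fall with TGF-β in KO lost the call without KO-SD replicate 2 (adjusted p = 0.0634) or KO-TGF replicate 3 (0.140). Sp100, a nuclear body protein, showed the same pattern at 3.18, 3.47 and 3.32 CPM in WT-SD, 1.04, 1.43 and 1.28 in WT-TGF, 0.827, 0.241 and 0.5504 in KO-SD and 0.268, 0.1604 and 0.0526 in KO-TGF. All KO libraries were again below all WT libraries, with differences of -2.57 ± 0.23 (log2, SE) in SD and -2.92 ± 0.40 with TGF-β (adjusted p = 4.29e-12). Both genes lay below the RPKM limit.

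Lgals3bp, a secreted glycoprotein that binds galectin, had 24.8, 24.8 and 27.8 CPM in WT-SD, 10.4, 10.2 and 10.5 in WT-TGF, 22.2, 20.4 and 20.7 in KO-SD and 6.21, 5.94 and 6.202 in KO-TGF. The groups were separate and the fall with TGF-β was 2.48-fold in WT and 3.45-fold in KO. Rtp4, a chaperone of membrane receptors, had 1.82, 1.604 and 1.59 CPM in WT-SD, 0.142, 0.5795 and 0.8398 in WT-TGF, 1.29, 1.01 and 1.38 in KO-SD and 0.268, 0.214 and 0.105 in KO-TGF. The WT-TGF libraries of Rtp4 were widely spread and overlapped KO-TGF, and the difference between them (-1.37 ± 0.48, log2, SE) lost its call in DESeq2 (adjusted p = 0.0535) and without WT-TGF replicate 3 (0.247) or KO-TGF replicate 3 (0.0989).

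Bst2, the tetherin that holds budding virus at the membrane, fell by 1.17 in WT and 1.31 in KO and was lower in KO in both conditions. Xaf1, an antagonist of the apoptosis inhibitor XIAP, fell by 0.96 and 1.36 and was also lower in KO. It reached the RPKM limit only in SD libraries, so its values are given as a description. Ifi44 was below the RPKM limit, at 0.637 to 0.911 CPM in WT-SD, and fell with TGF-β in WT alone by the test, while the difference between the responses (0.70 ± 0.62, log2, SE) did not pass. Its call in WT was lost in DESeq2 (adjusted p = 0.0513) and without WT-SD replicate 2 (0.0645).

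In WT, the smallest changes with TGF-β among the 24 genes above the limit were those of Ifi27 and Ifi35. Ifi27, a mitochondrial protein, ranged from 34.6 to 48.3 CPM over the 12 libraries, and all groups overlapped. Its difference with TGF-β was -0.15 ± 0.06 (log2, SE) in WT (edgeR adjusted p = 0.0433), which passed but lost its call with the CPM filter (0.0751) and without WT-SD replicate 1 (0.0884), WT-SD replicate 3 (0.359), WT-TGF replicate 1 (0.112) or WT-TGF replicate 3 (0.120). In KO it was 0.03 ± 0.07. With library size alone the value for Ifi27 in KO was -0.17 and passed (adjusted p = 0.0206). KO differed from WT in SD by -0.14 ± 0.06 for Ifi27, which did not pass (edgeR adjusted p = 0.0712). It passed with library size alone (0.00545), with the replicate number as a block (0.0322) and without WT-SD replicate 2 (0.00787). Leaving out KO-SD replicate 2 or 3, or any 1 of the KO-TGF libraries, also gave a call (0.0134 to 0.0467). Ifi35, an interferon-induced leucine zipper protein, lay at 12.8 to 18.5 CPM and was lower in KO-TGF than in every library of the other groups. It fell by 0.37 in KO, while the change in WT (-0.14 ± 0.07, adjusted p = 0.0981) passed only with library size alone (0.000681) or without WT-SD replicate 1 (0.0230). KO-TGF was below WT-TGF (-0.24 ± 0.08), a call lost without KO-TGF replicate 2 (0.0516) or 3 (0.0752).

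The response to TGF-β was compared between the genotypes by the interaction, the log2 change in KO minus that in WT. Of the 24 genes above the limit, 5 responded more negatively in KO (20.8%, beside 16.6% of all genes) and 1, Isg20, more positively (beside 8.67% of all genes), and of the 15 below it 1, Oasl2, more negatively (6.67%, beside 12.5%). These shares were near those of all genes. The 5 were Irf9 (-0.28 ± 0.09, SE), Herc6 (-0.40 ± 0.12), Eif2ak2 (-0.24 ± 0.06), Lgals3bp (-0.47 ± 0.11) and Ifi47 (-0.43 ± 0.13), and Oasl2 differed by -0.91 ± 0.34. Of these 7 with Isg20, Eif2ak2 and Lgals3bp kept their call in all alternatives run, with adjusted p between 0.000132 and 0.0202 and between 0.000417 and 0.0136. DESeq2 called these 2 alone, with Isg20 at an adjusted p of 0.0538. Without KO-TGF replicate 3 the calls were Ifit3 (-0.90, adjusted p = 0.0203), Eif2ak2 and Lgals3bp lower and Isg20 and Parp14 (adjusted p = 0.0332) higher, and Isg20 was not called without WT-TGF replicate 3 (0.0803), KO-SD replicate 1 (0.0566) or WT-SD replicate 2 (0.0551), where Ifi27 was called higher (0.0427).

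**Figure D5:**
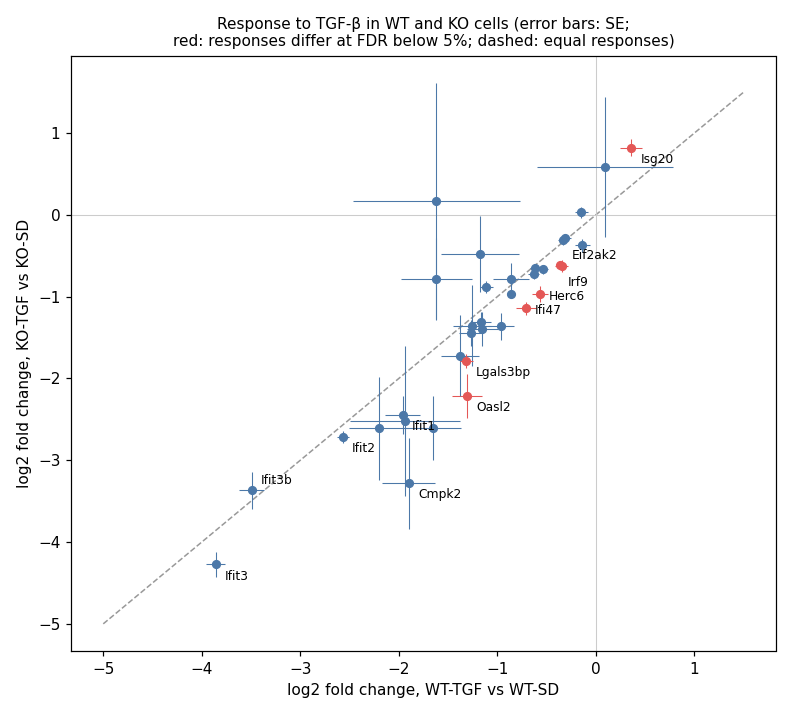
Log2 fold change with TGF-β in KO (vertical) against that in WT (horizontal), with SE bars, for the 35 members that exceeded 3 counts. Points on the dashed line responded equally, and the 7 red points, such as Lgals3bp at -1.31 in WT and -1.79 in KO, differed by the interaction at an FDR of 5%.

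The rest of the pathway was read from a list of 50 genes. None of the 21 interferon ligands exceeded 3 counts in any library, and 18 of them, among them Ifnb1, had no count in all 12, which allows a level of up to 0.161 CPM. The receptors were well expressed. Ifnar1 had 160.7 to 167.3 CPM in WT-SD, 172.2 to 177.3 in WT-TGF, 165.7 to 167 in KO-SD and 181.6 to 187.9 in KO-TGF, and its small increases of 0.09 and 0.16 (log2) turned to -0.07 and -0.05 with library size alone. Ifnar2 had 62.4 to 63.4 CPM in WT-SD and 44.6 to 47.2 in WT-TGF and fell by 0.45 in WT and by 0.53 in KO (edgeR adjusted p = 8.8e-12 and 3.99e-13). Ifnlr1, the receptor chain for interferon-λ, was below the RPKM limit and fell from 1.82 to 2.77 to 0.662 to 1.03 CPM in WT, and was at 0.7797 to 1.303 in KO-SD.

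Jak1 differed by -0.07 ± 0.03 (log2, SE) with TGF-β in WT and 0.10 ± 0.03 in KO, the latter -0.10 with library size alone, and Tyk2 by -0.43 ± 0.05 and -0.16 ± 0.06. Socs1, an inhibitor of the receptor kinases, rose from 1.46, 1.95 and 1.68 CPM in WT-SD to 4.16, 4.24 and 4.69 in WT-TGF and from 2.39, 2.22 and 2.06 to 4.66, 4.44 and 5.57 in KO. These were changes of 2.56-fold and 2.197-fold. Irf8 and Ptpn6 were below the RPKM limit, with at most 6 and 19 counts, and passed the test in at least 1 comparison. Irf8 was lower in both comparisons of KO with WT, and Ptpn6 in these and in WT with TGF-β.

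In all, 16 of the 50 pathway genes were lower and 7 higher with TGF-β in WT, and 10 and 7 in KO. KO was lower for 15 and higher for 2 in SD, and lower for 10 and higher for 3 with TGF-β. Of the 24 pathway genes above the RPKM limit, those lower numbered 13 with TGF-β in WT (beside 36.4% of all genes), 10 in KO (39.1%), 12 for KO against WT in SD (25.2%) and 8 with TGF-β (27.8%). Over all 50, the numbers lower and higher became 19 and 2, 17 and 2, 19 and 0, and 21 and 0 with library size alone. There was no higher gene in the KO comparisons at an unadjusted p under 0.05 either. The split of this list therefore depended on the scaling. The 40 members gave 32 lower in WT and 30 lower in KO with library size alone. A second list held 54 other interferon-stimulated genes, of which 35 passed the RPKM limit. With TGF-β 31 of the 54 were lower and 3 higher in WT, and 32 and 2 in KO, and KO was lower for 34 and higher for 4 in SD and lower for 26 and higher for 4 with TGF-β. Of the 35, those lower numbered 26, 25, 28 and 22 in that order, beside 36.4%, 39.1%, 25.2% and 27.8% of all genes. Its median log2 fold changes over the 35 were -0.66, -0.64, -0.25 and -0.32 in that order. In both lists a gene could reach the RPKM limit through the libraries where its level was high. Ifitm1, for example, had a mean RPKM of 2.98 in WT-SD, 0.159 in WT-TGF, 0.729 in KO-SD and 0.0163 in KO-TGF. The shares of both lists and these medians are therefore given as a description.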

How the data were processed

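RNA of mouse mesangial cells was read as single-end 51-base, strand-specific libraries of poly(A) RNA. The authors aligned reads to mm10 with TopHat and deposited raw counts per gene from HTSeq-count. Reads assigned to no gene stayed out of library sizes and made up 10.3% to 15.4% outside exons. The 12 libraries held 19898050 to 22827706 counts, in 4 groups of 3 set by the labels.

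Genes with RPKM >1 in at least 1 library, from exon-union lengths, were kept (11529), and for those below a second fit took in every gene counted at least once (18565). Counts were tested with edgeR 4.0.16 (R 4.3.3), with TMM scaling and the quasi-likelihood test, in 1 fit with a mean for each group, giving 4 pairwise comparisons and the interaction. P-values were adjusted by Benjamini-Hochberg over all genes of the fit and called at an FDR of 5%. The SE is the log2 fold change divided by the root of the F statistic. Where a group had at most 3 counts in each library, summed counts were compared with an exact conditional 95% interval. These intervals and the floor of 3 counts cover counting error only. The scripts were tested on simulated data. The members and lists were chosen with earlier results of these data known. Values per library were given, in each role group, for the member with the highest mean CPM and for those with the largest called change in each comparison (where 1 of the groups compared averaged 1 CPM or more), and also for further members picked after their values were seen; pathway genes were named from a short list or when called with a fold change >2, and some of these are not reported here. Alternatives were library size alone, DESeq2 1.42.0, the likelihood ratio test, other filters, only the groups compared, a replicate block and leaving out each library. The same alternatives for the 2 other gene lists were chosen after seeing the data. Promoter sequences are from RefSeq on GRCm38.p6, and read windows from the transcripts given for the same build.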

Additional observations from a re-analysis of the deposited data

Results flagged for a closer look

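For 7 interferon-stimulated genes the response to TGF-β differed between the genotypes by the interaction term of the edgeR quasi-likelihood fit. The log2 response in KO minus that in WT was -0.91 ± 0.34 (SE) for Oasl2 (adjusted p = 0.0421), -0.47 ± 0.11 for Lgals3bp (0.00145) and -0.43 ± 0.13 for Ifi47 (0.0165). It was -0.40 ± 0.12 for Herc6 (0.0161), -0.28 ± 0.09 for Irf9 (0.0288) and -0.24 ± 0.06 for Eif2ak2 (0.00109), each with 3 libraries in every group. Isg20 alone differed upward, by 0.46 ± 0.15 (0.0239). Over the alternatives the adjusted p ran from 0.0107 to 0.289 for Oasl2, from 0.00494 to 0.101 for Ifi47, from 0.00672 to 0.140 for Herc6, from 0.00993 to 0.196 for Irf9 and from 0.0132 to 0.0803 for Isg20, so these 5 calls were lost in at least 1 of them, whereas those of Lgals3bp and Eif2ak2 were kept. The shares of the 24 genes above the RPKM limit, 20.8% lower and 4.17% higher, stood beside 16.6% and 8.67% of all genes tested. All 6 genes that differed downward fell with TGF-β in both genotypes, and Isg20 rose in both.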

How the results depend on the processing

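The count of the 40 genes called lower stayed within 1.5 times its value in the 4 pairwise comparisons under every alternative run, and leaving out each library gave 30 to 31 with TGF-β in WT, 28 to 29 in KO, 21 to 24 for KO against WT in SD and 22 to 24 with TGF-β. Library size alone left 0 higher in WT (0 also at an unadjusted p under 0.05). For the interaction DESeq2 gave 2 lower and 0 higher (6 and 2 unadjusted), and leaving out each library gave 3 to 7 lower and 0 to 2 higher. The cause was not tested. Of 4022 alternative values for 215 values of single genes, 70 lost a call, 46 gained one and 7 reversed. The reversals came with library size alone: Samd9l, KO-TGF against WT-TGF, -0.032; Ifi27, KO-TGF against KO-SD, -0.17; Ifnar1 -0.073 in WT and -0.0485 in KO with TGF-β and -0.0308 for KO-TGF against WT-TGF; Jak1 -0.10 in KO with TGF-β and -0.11 for KO-TGF against WT-TGF. The mean summed CPM was 875.8 in WT-SD, 450.8 in WT-TGF, 755.8 in KO-SD and 372.2 in KO-TGF with library size alone, and 582.3, 340, 479.2 and 285.5 without Samd9l.

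For the other pathway genes, library size alone gave 2 higher in WT with TGF-β, 17 lower and 2 higher in KO with TGF-β, 0 higher for KO against WT in SD, 21 lower and 0 higher with TGF-β, and 4 lower for the interaction. KO-SD against WT-SD had 0 higher in DESeq2 (0 unadjusted) and with only the groups compared (1 unadjusted), and 0 to 2 without each library. The interaction had 1 lower in DESeq2 and 1 to 3 without each library. For the other interferon-stimulated genes, KO with TGF-β had 1 higher with library size alone or the CPM filter and 1 to 3 without each library. KO-TGF against WT-TGF had 2 higher with library size alone, DESeq2 or the CPM filter and 2 to 4 without each library. The interaction had 6 lower in DESeq2, and 5 to 13 lower and 2 to 5 higher without each library. Same-numbered libraries of different groups deviated together little (correlations of -0.0335 to 0.147 over 18 pairs), so the numbers were not taken as pairs. With the replicate number as a block the counts were 31 lower and 1 higher, 29 and 1, 22 and 2, 23 and 3, and 6 and 1. With 3 counts as the floor, 5 members could show no change at this depth.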
